A study of Mus musculus with 11 samples.

Results

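The genes described here encode the enzymes that write and erase methyl groups on histone lysines and on DNA, with 2 non-catalytic core subunits of Polycomb repressive complex 2 (PRC2). They were chosen by name, as 40 gene symbols matched to the Ensembl identifiers of a count table of 48709 genes: 14 lysine demethylases, 4 genes of PRC2, 16 other lysine methyltransferases, 3 DNA methyltransferases and 3 TET dioxygenases. All 40 had counts high enough to be tested.

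RNA was sequenced from muscle stem cells, which repair skeletal muscle, of the pectoral, forelimb and hindlimb muscles of C57BL/6 mice carrying the Tg:Pax7-nGFP transgene, in which Pax7 drives a nuclear green fluorescent protein. All 3 groups carry this transgene, and the T3 and T5 cells were isolated by FACS. T0 cells came from muscle fixed whole in 0.5% paraformaldehyde for 1 h at 4°C, before the tissue was taken apart. T3 cells were sorted first and then fixed for 30 min on ice. T5 cells were fixed like those of T3 and had in addition 2 h at 37°C. One label places these 2 h before the sort, with the dissected muscle in DMEM, and another after the isolation. The labels give no age or sex of the mice and do not say how many mice went into a library. T3 was compared with T0 to find what differed after isolation, and T5 with T3 to find what differed after the added time. The way of fixing changed between T0 and T3 as well and cannot be told apart from the isolation.

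Lysine methylation has no single meaning on chromatin. Methyl groups on H3K4 and H3K36 are found at active promoters and along transcribed genes, H3K79 methylation marks genes that are being elongated, and H3K9 and H3K27 methylation goes with silenced chromatin. Each mark has writers, most of which carry a SET domain and use S-adenosylmethionine. The known erasers belong to the flavin-dependent LSD1 family or the JmjC family, which needs 2-oxoglutarate, iron and oxygen. DNA methyltransferases add a methyl group to cytosine, and TET enzymes, which also use 2-oxoglutarate, oxidise it. In muscle stem cells Polycomb silencing by EZH2 and H3K4 methylation by MLL1 at Pax7 target genes are known parts of the control of the quiescent and the dividing state.

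Library totals ran from 49078859 to 67251946 counts in the 3 T0 libraries, from 52632553 to 72638711 in the 4 T3 libraries and from 61837170 to 102347035 in the 4 T5 libraries. T5 libraries that share a letter in their names were added up, which left n = 2 for T5, since their titles leave unsaid whether these are separate samples. The letters did not mark the libraries most alike: the median chi-square over genes was 24 between the 2 A libraries, 5.62 between A5 and B6 and 5.11 between A6 and B5. The T5 SDs, and the counts of groups that do not overlap T5, rest on 2 sums and may understate the spread of T5 (Kdm2a had 172, 131, 154 and 146 CPM in the 4 libraries and 150 in both sums). Between 4.14 and 20.3% of a library's counts fell on ribosomal RNA loci. Pax7 averaged 3611 CPM (counts per 1000000 of the TMM-scaled library) in T0, 315 in T3 and 316 in T5, and the summed level of 12 muscle stem cell markers was 5733 to 8981, 2647 to 3302 and 1945 to 2006 CPM. Markers of other cells were present in each group, and none was at 0 in all libraries. Endothelial markers summed to 289 to 341 CPM in T0, to 510 to 609 CPM in T3 and to 307 to 309 CPM in T5, and monocyte and macrophage markers to 101 to 112, 265 to 332 and 274 to 276 CPM. Myofibre markers summed to 153 to 170, 176 to 245 and 158 to 160 CPM. Pericyte and smooth muscle markers summed to 678 to 1104, 271 to 521 and 231 to 240 CPM, and those of fibro-adipogenic progenitors and fibroblasts to 871 to 1284, 470 to 805 and 641 to 644 CPM. In such bulk samples, fewer cells of a type and less RNA per cell cannot be told apart.

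One replicate stood apart within T0. T0 replicate 3 had the lowest T0 value for 40 of 40 genes of the set, at 0.513 to 0.801 times the mean of the other 2 replicates (median 0.62). Over 20506 genes with at least 1 CPM in T0 the median of this ratio was 0.717, and 65.4% of them had their lowest T0 value in that replicate. It also had the largest share of ribosomal RNA loci in T0, 18.3% against 4.14 and 12.5%. The 40 genes together had 3494 CPM in it and 6025 and 5350 CPM in the others, while the T3 replicates had 5306, 6520, 5670 and 6433 CPM and the T5 replicates 4658 and 4663 CPM. When each gene was instead expressed as a share of the 40 genes' summed counts, a view chosen after seeing the data, the genes' median coefficient of variation in T0 fell from 25.9 to 6.56%. Shares have the same total in each replicate, so a shift common to all genes drops out of them by construction. By CPM the replicate was low for the whole set, while the proportions among the genes shifted less. The shift was not nil: Tet1 took 1.02% of the set's counts in it against 0.802 and 0.752%, and Ezh1 2.28% against 2.67 and 2.78%. The counts of calls and the largest changes are given with and without it, and the other values that rest on T0 include it.

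**Figure D1:**
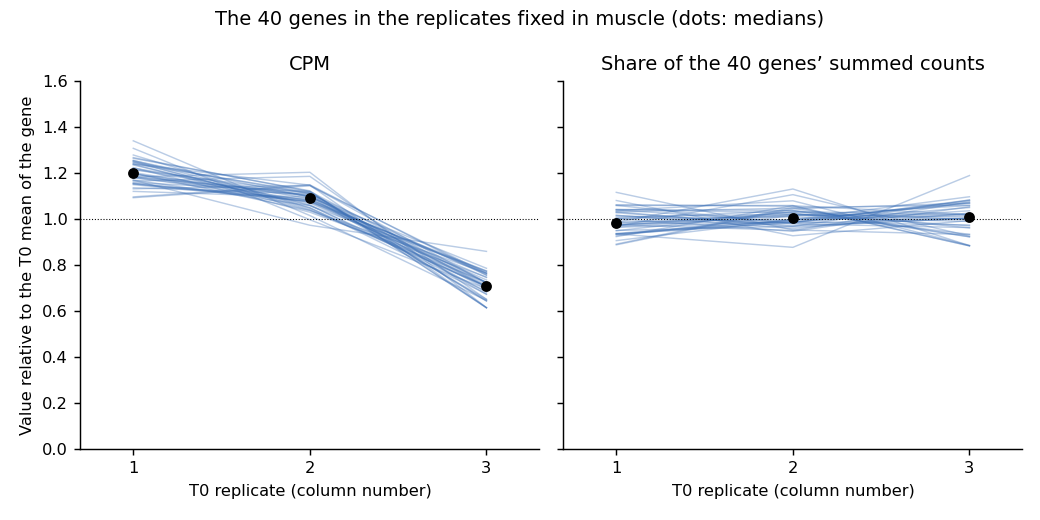
Value of each of the 40 genes in the 3 T0 replicates, relative to the gene's T0 mean, in CPM (left) and as a share of the 40 genes' summed counts (right); each line is a gene and the dots are medians, and the lines join replicates that have no order. All 40 genes were lowest in replicate 3 by CPM. Shares have the same total in each replicate, so a drop common to all genes cannot show in them.

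After isolation the set split. Of the 40 genes, 12 were higher and 9 lower in T3 than in T0 at an adjusted p under 0.05 (edgeR quasi-likelihood test, Benjamini-Hochberg over 31999 genes), and 19 were not called. Over all genes tested 15.0% were called higher and 22.9% lower, 37.9% together. Of the set's 27 genes without an overlapping gene of 10% or more of their count, 6 were higher and 8 lower. Among 10156 genes within the range of the set's mean levels, 25.3% and 31.4% were called, and the set's 12 and 9 of 40 lie near these shares. The median log2 fold change was 0.11 for the set and 0.05 for all genes. Individual genes moved further than the set: 5 called genes rose and 4 fell by at least 2-fold, against 3030 and 5172 of the 31999 genes tested. Replicates of T3 and T0 did not overlap for 21 of the 40, against 38.3% of all genes. Without T0 replicate 3 the same 12 genes were higher and 14 were lower, the 9 with Dnmt1, Kdm2b, Kmt2e, Setd1b and Setd7. Of all genes, 22.4% were called higher and 28.1% lower in that fit. The log2 fold changes of the 12 were then 0.39 (Suz12) to 1.98 (Kdm6b), and those of the 9 were -2.18 (Tet1) to -0.85 (Kmt2c). With upper quartile scaling in place of TMM, 23 were higher and 9 lower, against 22.4% and 18.1% of all genes. This shifts the all-gene median from 0.05 to 0.32, so the balance of the 2 directions depends on the scaling. The summed endothelial, macrophage and myofibre markers were also higher in each T3 replicate than in each of T0. Of these lists, 6 of 12, 4 of 12 and 11 of 16 genes were called higher, and 0, 0 and 2 lower. The summed markers of muscle stem cells, pericytes and fibro-adipogenic progenitors were lower, but their genes were mixed. Here 6 of 12, 4 of 10 and 3 of 12 were called lower, and 3, 1 and 2 higher. The median log2 fold change of the fibro-adipogenic list was 0.45. In the macrophage list, Cx3cr1 is overlapped by Csrnp1 and Wdr48 with 37.2% and 30.5% as many counts. The part of these other cells in the counts of calls was not tested.

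**Figure D2:**
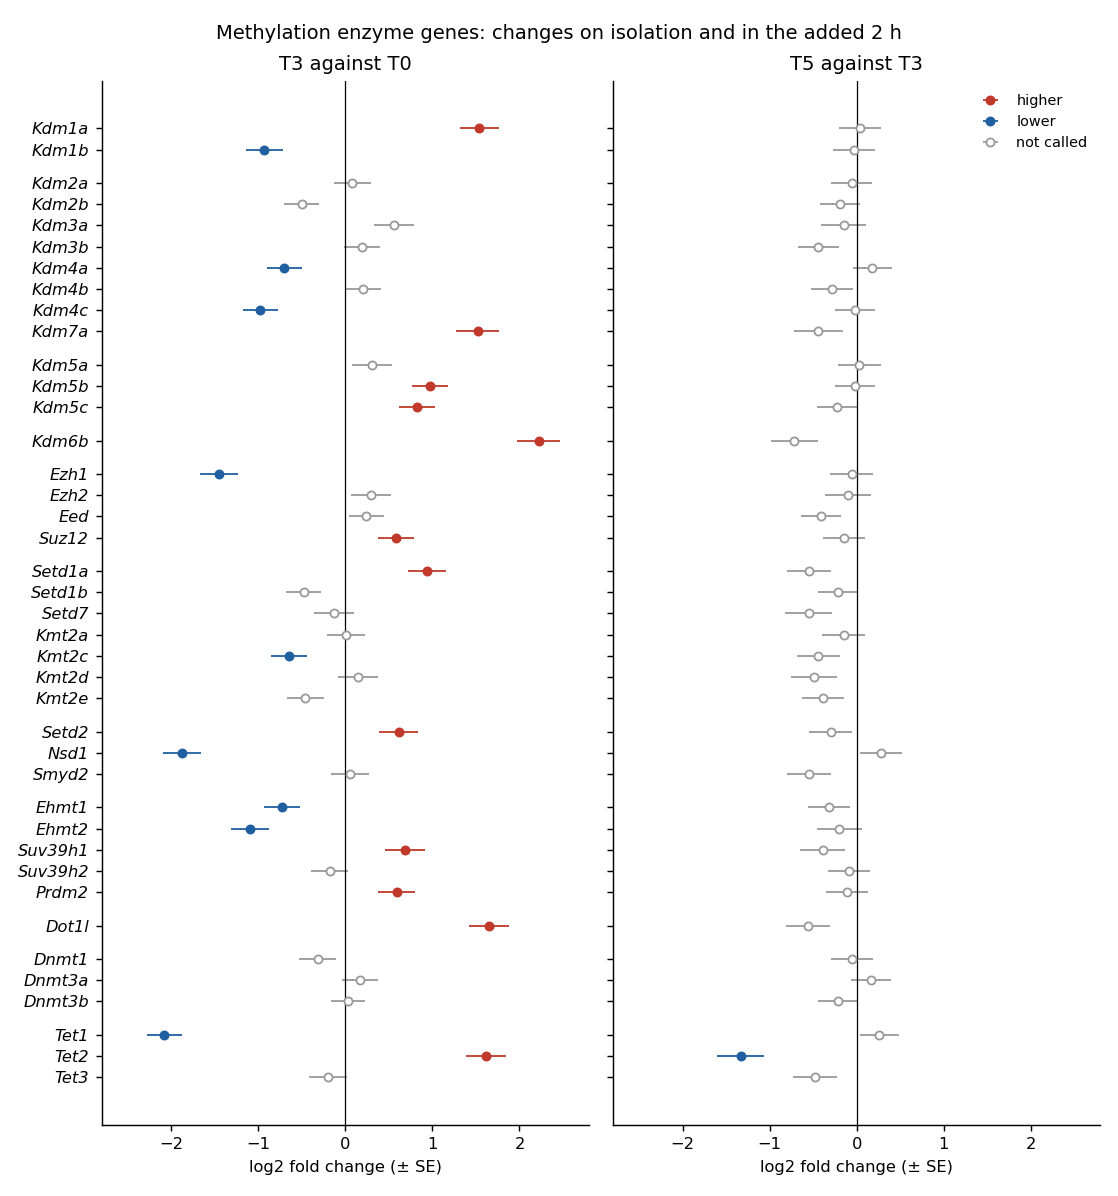
Log2 fold change with its standard error for the 40 genes, grouped by the mark they act on, in T3 against T0 (left) and T5 against T3 (right). Filled points passed an adjusted p of 0.05: 12 higher and 9 lower on the left, and Tet2 alone on the right.

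The largest rise in the set was that of Kdm6b (ENSMUSG00000018476, chr11:69398508-69413675, minus strand, GRCm38), which encodes JMJD3, a demethylase of H3K27. Its level was 136, 103 and 65.5 CPM in the T0 replicates, 416, 526, 441 and 500 CPM in T3, and 275 and 297 CPM in T5. The 3 groups did not overlap, with T5 between the other two. The log2 fold change of T3 against T0 was 2.22 ± 0.25 (SE, adjusted p = 1.95e-07), or 4.65-fold, and 1.98 without T0 replicate 3. An antisense gene, Kdm6bos, had 12% as many counts and rose with it, by 2.33. With the reads of overlapping genes taken off, Kdm6b still rose by 2.20. From T3 to T5 its log2 fold change was -0.72 ± 0.27 (adjusted p = 0.221) and was not called, but it passed without T0 replicate 3 (adjusted p = 0.0217) and with the 4 T5 libraries kept apart (0.0336). T5 remained above T0 by 1.50 (adjusted p = 0.000123).

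PRC2 places the mark that KDM6B removes. Its catalytic subunit is EZH2 or EZH1, which has the weaker methyltransferase activity and prevails in resting cells, and EED and SUZ12 complete the core. Ezh1 (chr11:101191115-101226463, minus strand) stood at 161, 149 and 79.7 CPM in T0, at 42.7, 43.7, 49 and 54 CPM in T3, and at 44.7 and 46.4 CPM in T5. Each T0 replicate was above each T3 and T5 replicate, and T3 and T5 overlapped. It fell by 1.45 on the log2 scale (SE 0.22, adjusted p = 1.27e-05), and by 1.71 without T0 replicate 3. Ezh2 had 67.9, 69.1 and 37.9 CPM in T0, 52.4, 79.6, 79.3 and 74.1 CPM in T3 and 69.2 and 63.9 CPM in T5, and its groups overlapped (log2 fold change 0.29 ± 0.23, adjusted p = 0.36). The ratio of Ezh2 to Ezh1 counts, which the depth of a library does not affect, was 0.422, 0.466 and 0.476 in T0, 1.23, 1.82, 1.62 and 1.37 in T3, and 1.55 and 1.38 in T5. The ratio of Kdm6b to Ezh1 counts lay between 0.692 and 0.843 in T0, between 9.01 and 12 in T3, and at 6.16 and 6.41 in T5. These 2 ratios separated T0 from both other groups in every replicate, although T0 replicate 3 was low for each gene alone. Ezh1 and Kdm6b each already did so by level, so the ratios add no separate support. Suz12 rose by 0.58 ± 0.21 (adjusted p = 0.0336), a call lost in 6 of the 17 other settings, and a gene on the other strand, Gm26563, had 31.9% as many counts. For Eed the log2 fold change was 0.24 ± 0.20 (adjusted p = 0.397). It became 0.57 (adjusted p = 0.0491) once the reads of overlapping genes were taken off. One of these, E230029C05Rik, had 22.9% as many counts and fell by 0.84.

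**Figure D3:**
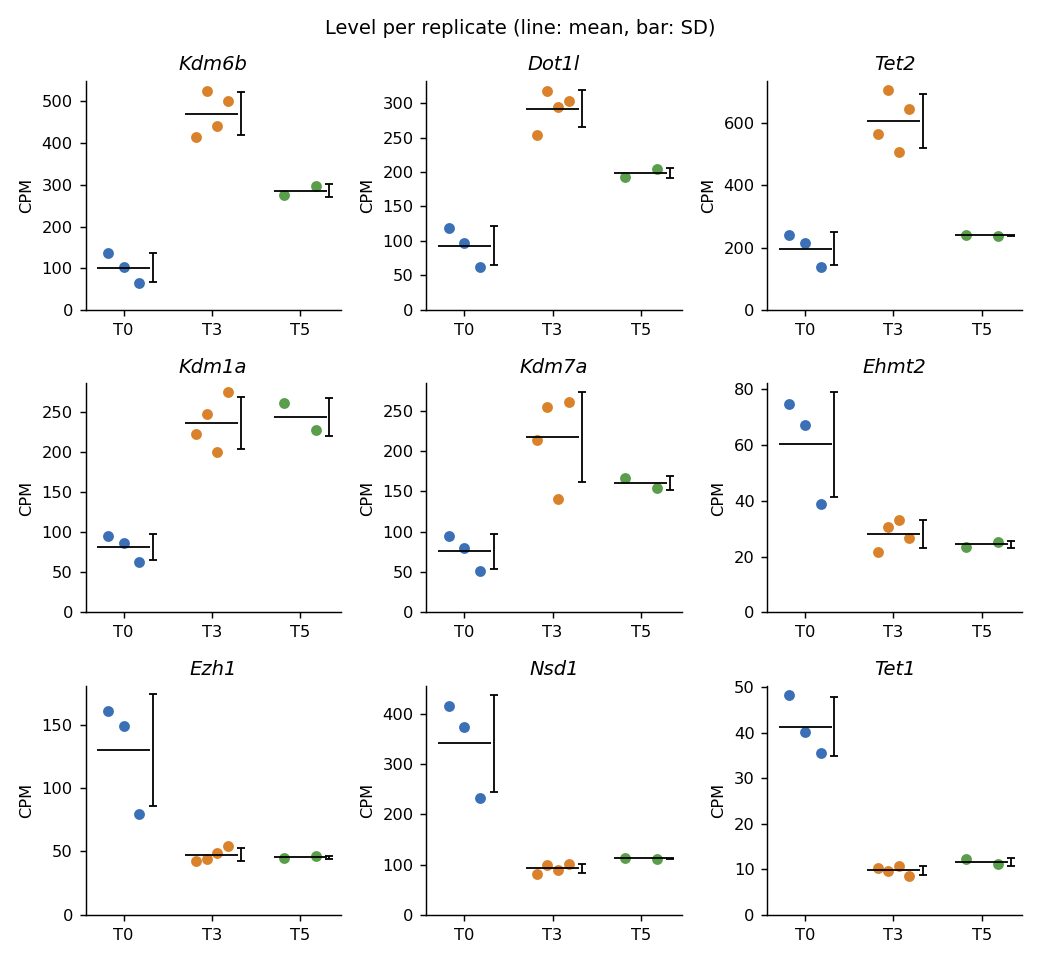
CPM in each replicate of the 9 genes of the set called with at least a 2-fold change in T3 against T0, with the group mean (line) and SD (bar); T0 n = 3, T3 n = 4, T5 n = 2. In each panel every T0 replicate lies to one side of every T3 replicate, and Tet2 in T5 lies at the level of T0.

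The TET genes went separate ways. Tet2 (chr3:133463679-133545139, minus strand) had 239, 214 and 137 CPM in T0, 565, 705, 506 and 643 CPM in T3, and 241 and 238 CPM in T5. T3 was above both other groups without overlap, while T5 lay within the range of T0 or just above it. Its log2 fold change was 1.62 ± 0.23 in T3 against T0 (adjusted p = 5.91e-06), and 1.42 without T0 replicate 3. Tet1 (chr10:62804570-62908996, minus strand), which has a CXXC domain that TET2 lacks, had 48.3, 40.2 and 35.5 CPM in T0, 10.2, 9.63, 10.7 and 8.53 CPM in T3, and 12.3 and 11.1 CPM in T5. T0 was above both other groups without overlap. Its log2 fold change in T3 was -2.08 ± 0.20, with the smallest adjusted p of the set (1.91e-08), and -2.18 without T0 replicate 3. The ratio of Tet2 to Tet1 counts was 3.86 to 5.32 before isolation, 47.4 to 75.3 in T3, and stood at 19.7 and 21.5 in T5. Tet3 had 127 to 208 CPM in T0 and 113 to 176 CPM in T3 and was not called (-0.20 ± 0.22, adjusted p = 0.526). Per length, Tet1 in T3 had the lowest level of the 40 genes, 0.631 CPM per kb of exon.

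The DNA methyltransferases showed no call in any of the 3 comparisons with TMM scaling and all replicates. Dnmt1, which copies methylation onto new strands, had 34.5 to 49.2 CPM in T0, 26.8 to 42.7 in T3 and 33.5 and 34.7 in T5 (-0.32 ± 0.21 in T3 against T0, adjusted p = 0.262), and was called lower in T3 without T0 replicate 3 (-0.46, adjusted p = 0.0328). Dnmt3a, a de novo enzyme, had 75.2 to 118 CPM in T0, 90.1 to 119 in T3 and 118 and 128 in T5 (0.17 ± 0.21, adjusted p = 0.586). Dnmt3b, the other de novo enzyme, was lower in level, with 9.68 to 14.7 CPM in T0, 12.3 to 14.2 in T3 and 10.7 and 11.5 in T5 (0.03 ± 0.20, adjusted p = 0.932). The SEs of 0.20 to 0.21 leave room for modest changes, so these values do not show that the genes were equal. Under upper quartile scaling Dnmt3a was called higher in T3 (0.48, adjusted p = 0.00538) and in T5 (0.70, 0.00162), each against T0, and Dnmt3b in T3 (0.35, 0.0454).

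Dot1l (chr10:80755206-80795461, plus strand), the gene of the only known H3K79 methyltransferase, had 119, 97.6 and 62.7 CPM in T0, 254, 317, 294 and 303 CPM in T3, and 193 and 204 CPM in T5. The order was T0, T5, T3, with no overlap. It rose in T3 by 1.65 ± 0.23 (adjusted p = 3.82e-06), and by 1.43 without T0 replicate 3. T5 stayed above T0 by 1.09 (adjusted p = 0.00172), and T5 against T3 gave -0.56 ± 0.25 (adjusted p = 0.356, and 0.0411 without T0 replicate 3). Of 7 genes for partners of DOT1L and the elongation complexes around it, 3 rose and 3 fell, beside 15.0% and 22.9% of all genes. Mllt1 (ENL) rose by 1.18, Mllt6 (AF17) by 1.07 and Aff4 by 1.00 (adjusted p = 6.71e-05, 0.000375 and 0.00104). Mllt10 (AF10) fell by 0.71 (adjusted p = 0.0101), but its counts are uncertain beside the overlapping Dnajc1, with 132% as many.

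Promoter sequences are shown for the genes with the largest changes in each direction that have an entry, so that their base composition can be seen. Each runs 5′ to 3′ over the 250 bases before the transcription start in RefSeq (GRCm38.p6), and capitals mark the ETS core CCGGAAG on either strand.
Dot1l (chr10:80754953-80755202, plus strand): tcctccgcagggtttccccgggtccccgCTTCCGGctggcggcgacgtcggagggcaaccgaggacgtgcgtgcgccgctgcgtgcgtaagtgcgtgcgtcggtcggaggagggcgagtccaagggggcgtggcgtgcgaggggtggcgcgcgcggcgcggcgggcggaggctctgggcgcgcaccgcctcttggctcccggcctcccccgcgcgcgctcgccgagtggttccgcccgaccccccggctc
Tet2 (chr3:133544391-133544640, minus strand): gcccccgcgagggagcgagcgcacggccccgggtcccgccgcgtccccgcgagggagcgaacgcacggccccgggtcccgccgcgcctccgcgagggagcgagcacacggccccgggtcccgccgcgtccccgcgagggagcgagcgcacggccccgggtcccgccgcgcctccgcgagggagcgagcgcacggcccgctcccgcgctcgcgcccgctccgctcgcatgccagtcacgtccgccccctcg
Tet1 (chr10:62887325-62887574, minus strand): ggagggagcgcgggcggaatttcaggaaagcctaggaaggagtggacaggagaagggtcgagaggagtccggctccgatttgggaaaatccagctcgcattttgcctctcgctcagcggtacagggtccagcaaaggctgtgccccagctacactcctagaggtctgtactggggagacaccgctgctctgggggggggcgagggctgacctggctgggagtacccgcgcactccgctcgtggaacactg
Ezh1 (chr11:101226464-101226713, minus strand): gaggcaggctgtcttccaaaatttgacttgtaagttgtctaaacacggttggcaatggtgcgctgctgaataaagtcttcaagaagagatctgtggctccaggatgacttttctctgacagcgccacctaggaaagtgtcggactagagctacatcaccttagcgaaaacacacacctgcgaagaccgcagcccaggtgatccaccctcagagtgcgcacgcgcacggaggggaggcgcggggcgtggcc
G and C made up 78.4% of the letters in Dot1l, 83.6% in Tet2, 62.8% in Tet1 and 55.2% in Ezh1. The other called genes did not all follow this order: Kdm5c, which rose, had 43.6% and Kdm1a 59.2%, while Kmt2c, which fell, had 91.6% and Kdm1b 71.6%. Some did follow it: Kdm7a and Setd2, which rose, had 82% and 76%, and Kdm4a, which fell, had 53.6%. Whether direction goes with this content was not tested. Start sites differ between annotations, and the Tet1 and Tet2 starts used here lie inside the annotated genes. RefSeq promoters were found for 31 of the 40 genes (43 promoters) and not used for Kdm2a, Kdm3b, Kdm4b, Kdm5a, Kdm6b, Kmt2e, Nsd1, Prdm2 and Setd1b. The 43 promoters had a median G and C content of 68.4%, against 52.4% for 32851 promoters of all genes, and a median observed to expected CpG ratio of 0.842 against 0.373. The GC box GGGCGGG, on either strand, was in 23 of the 43 and in 23.4% of all promoters. A TATA box, TATAAA, was in 0 of the 43 and in 12.4% of all. The AP-1 letters TGANTCA were in 3 of the 43, those of Kdm3a, Kdm4a and Kdm5c, and in 6.75% of all. The ETS core was also in 3 of the 43, those of Dot1l, Kdm3a and Kdm7a, and in 6.91% of all. None of these matches is shown to be a bound site.

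Both genes of the LSD1 family moved, in opposite directions. Kdm1a (chr4:136550540-136602723, minus strand) encodes LSD1, which takes methyl groups from H3K4 within the CoREST complex. It had 95.3, 86.2 and 63 CPM in T0, 222, 248, 200 and 275 CPM in T3 and 261 and 227 CPM in T5, and rose in T3 by 1.54 ± 0.22 (adjusted p = 4.97e-06), or by 1.38 without T0 replicate 3. The T5 replicates fell within the range of T3. Kdm1b (LSD2), which acts on H3K4 in gene bodies, had 47, 40.3 and 26.9 CPM in T0, 19.4, 22.4, 18.1 and 19.7 CPM in T3 and 20.1 and 18.8 CPM in T5, and fell by 0.93 on the log2 scale (SE 0.21, adjusted p = 0.000748). Both are uncertain, because genes in these counts share reads with the genes they overlap. Luzp1, on the other strand of Kdm1a, had 84.7% as many counts and rose by 1.98. Next to Kdm1b, Dek had 423% as many counts and a log2 fold change of 0.44 (adjusted p = 0.121), and Tpmt 20.8% and fell by 1.65. How much of either change belongs to the neighbours was not tested. Of 13 genes for CoREST subunits and HP1 partners, 1 rose and 5 fell, beside 15.0% and 22.9% of all genes. The scaffold Rcor1 rose by 1.22 (adjusted p = 5.72e-05), and its paralogue Rcor3, overlapped by Gm10516 at 16%, fell by 1.69 (5.09e-07). Cbx5, which encodes the H3K9 methyl reader HP1 alpha, fell by 1.54 (1.06e-06). Atf7ip, a cofactor of the H3K9 methyltransferase SETDB1, fell by 0.95 (0.000438).

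Among the 8 genes of the KDM2, KDM3, KDM4 and KDM7 families, 1 rose and 2 fell, beside 15.0% and 22.9% of all genes. Kdm7a, whose product acts on H3K9 and H3K27, had 95, 80.3 and 51.8 CPM in T0, 213, 255, 140 and 260 CPM in T3 and 166 and 154 CPM in T5. It rose by 1.52 ± 0.25 (adjusted p = 3.2e-05), and by 1.31 without T0 replicate 3, with T3 replicate 3 lowest in its group. A gene on the other strand, 4930599N23Rik, had 43.4% as many counts and rose by 1.20, and its part was not tested. The H3K9 and H3K36 demethylase genes Kdm4a and Kdm4c fell by 0.70 and 0.98 (adjusted p = 0.00662 and 0.000314). The Kdm4a call was kept in 16 of 17 other settings and lost with a replicate block. Kdm4b of the same family was not called (0.20, adjusted p = 0.522). The H3K36 demethylase genes Kdm2a (0.08) and Kdm2b (-0.50, adjusted p = 0.0525) and the H3K9 demethylase genes Kdm3a (0.56, adjusted p = 0.0584) and Kdm3b (0.19) were not called. Within the H3K4-specific KDM5 family, Kdm5b rose by 0.97 (adjusted p = 0.00064) and Kdm5c by 0.82 (0.00255), both in all settings tried, while Kdm5a gave 0.31 (0.331). Of 13 further lysine demethylase genes, 3 rose and 2 fell, beside 15.0% and 22.9% of all genes. Jmjd1c, a KDM3 relative, went from 238 ± 47.1 CPM in T0 to 782 ± 127 CPM in T3 (SD, n = 3 and 4, log2 fold change 1.71 by edgeR, adjusted p = 2.41e-06), and Reep3 overlaps it with 20.7% as many counts. Riox1 rose by 1.44 (2.23e-05), with Gm26571 overlapping at 25.8%, and Kdm4d, low in all groups (4.55 CPM in T0, 1.78 in T3), fell by 1.35 (2.16e-05). Kdm8 fell by 0.61 (0.0197), a call lost in 7 of 17 other settings.

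The 7 H3K4 methyltransferase genes included 1 that rose and 1 that fell, beside 15.0% and 22.9% of all genes. Setd1a rose by 0.94 ± 0.22 (adjusted p = 0.0015), with Gm49388 on the same strand at 79.8% as many counts, and Setd1b gave -0.48 ± 0.20 (adjusted p = 0.0726), with Gm26745 on the other strand at 164%. Kmt2c, which with its paralogue Kmt2d writes H3K4 monomethylation at enhancers, fell by 0.65 ± 0.21 (adjusted p = 0.017), a call lost in 4 of 17 other settings. Kmt2d (0.14), Kmt2a, the MLL1 gene (0.01), and Setd7 (-0.13), which monomethylates H3K4 and other proteins, were not called. Kmt2e, which has a SET domain but little known enzymatic activity, gave -0.46 ± 0.21 (adjusted p = 0.0926), and Srpk2 overlaps it with 33.2% as many counts. Kmt2a, Kmt2c, Kmt2d and Kmt2e were among the genes with the most counts of the set, at 338 to 399 CPM in T0, but they are also long. Per kb of exon, the T0 order was led by Kmt2e at 32.3 and Ehmt1 at 24.9 CPM. In T3 it was led by Kdm6b at 67.7, Kdm1a at 45.6 and Tet2 at 35.8 CPM per kb of exon. These lengths are rough guides, since the counts hold intronic reads too. Of 12 genes for shared COMPASS and MLL subunits 1 rose and 3 fell, beside 15.0% and 22.9% of all genes. Wdr5 rose by 1.41 (adjusted p = 1.35e-05), and Dpy30 and Rbbp5 fell by 0.97 and 0.78 (0.000399 and 0.00355). Pagr1a also passed, but its counts cannot be told from those of its near copy Pagr1b.

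Of the H3K36 methyltransferase genes, Nsd1 had the largest fall and Setd2 rose. Nsd1 (chr13:55209782-55318325, plus strand), whose product writes H3K36 dimethylation, had 416, 374 and 232 CPM in T0, 82, 98.4, 89.8 and 101 CPM in T3, and 113 and 112 CPM in T5. T0 stood above T5, and T5 just above T3, without overlap. The log2 fold change was -1.88 ± 0.22 (adjusted p = 2.92e-07), and -2.09 without T0 replicate 3. Setd2, the H3K36 trimethylation enzyme, rose by 0.61 ± 0.22 (adjusted p = 0.0294), a call lost in 7 of 17 other settings. Smyd2, whose product also methylates proteins other than histones, had a log2 fold change of 0.05. From a separate list, the NSD1 paralogues Nsd2 and Nsd3 rose by 1.16 and 0.92 (adjusted p = 0.00012 and 0.00192). Nelfa overlaps Nsd2 with 19.7% as many counts.

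The H3K9 methyltransferase genes also divided. Ehmt2 (G9a, chr17:34898469-34914052, plus strand) had 74.6, 67.2 and 38.7 CPM in T0, 21.7, 30.5, 33.1 and 26.6 CPM in T3, and 23.4 and 25.3 CPM in T5. T0 was above T3 and T5 without overlap, T0 replicate 3 by the least. It fell by 1.10 on the log2 scale (SE 0.22, adjusted p = 0.000329), and by 1.34 without T0 replicate 3. Ehmt1 (GLP), with which G9a forms a heteromer, fell by 0.73 ± 0.21 (adjusted p = 0.00654), and both genes of this H3K9 dimethylation complex were lower. Suv39h1, an H3K9 trimethylation enzyme of heterochromatin, rose by 0.68 ± 0.23 (adjusted p = 0.021) from 10.9 to 17.5 CPM, a call lost in 3 of 16 other settings. Gm14820 on the other strand had 119% as many counts and rose by 0.68 too. Suv39h2, with means of 9.69 CPM before and 8.56 CPM after isolation, gave -0.18, and Dclre1c overlaps it with 298% as many counts. Prdm2 (RIZ1) rose by 0.59 ± 0.21 (adjusted p = 0.033), a call lost in 8 of 17 other settings. Of 24 further lysine methyltransferase genes, 6 rose and 8 fell, beside 15.0% and 22.9% of all genes. The largest fall was that of Kmt5c, an H4K20 trimethylation enzyme, from 20.7 ± 5.84 to 3.41 ± 0.712 CPM (SD, n = 3 and 4, log2 fold change -2.60 by edgeR, adjusted p = 1.01e-08). Setmar fell by 1.98 (6.2e-06) and Smyd1 by 1.36 (2.9e-06, with Krcc1 overlapping at 60.6%).

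With the shares, which remove the common shift of T0 replicate 3, Kdm6b went from 2.02 ± 0.205% of the 40 genes' counts in T0 to 7.86 ± 0.143% in T3 and 6.15 ± 0.329% in T5 (SD, n = 3, 4 and 2). Tet2 went from 3.96 ± 0.0379% to 10.1 ± 0.856% and 5.14 ± 0.0567%. Nsd1 took 6.84 ± 0.183% in T0, 1.55 ± 0.0318% in T3 and 2.41 ± 0.0235% in T5. Tet1 took 0.856 ± 0.14%, 0.165 ± 0.0295% and 0.25 ± 0.0186%, and Ezh1 took 2.58 ± 0.261%, 0.794 ± 0.0858% and 0.977 ± 0.0248%. In T0 the largest shares were those of Kmt2d at 8.02% and Kmt2c at 7.79%, and in T3 those of Tet2 and Kdm6b. A share falls when others rise, so the directions of the smaller ones are relative to the set.

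**Figure D4:**
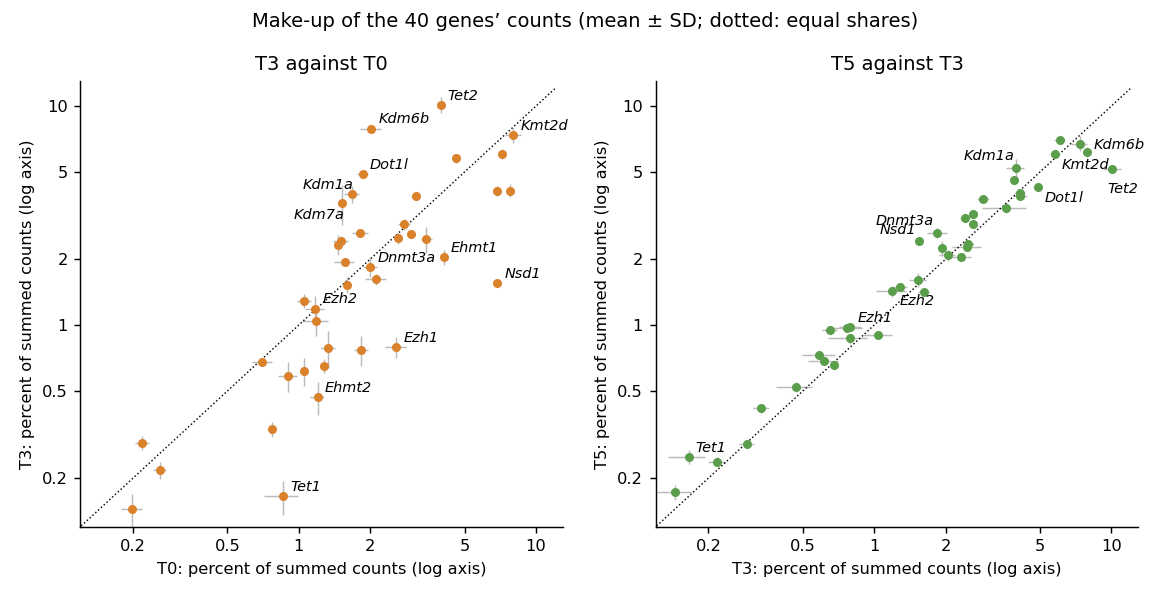
Share of the 40 genes' summed counts taken by each gene, as group mean and SD on log axes, in T3 against T0 (left) and T5 against T3 (right). On the left Kdm6b and Tet2 stand above and Nsd1, Ezh1 and Tet1 below the line of equal shares, and on the right Tet2 stands below it, at 5.14% in T5 against 10.1% in T3.

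Only 1 of the 40 genes passed the test for the added 2 h. Tet2 fell by 1.33 on the log2 scale (SE 0.27, adjusted p = 0.00643), or 2.52-fold, from 604 ± 87.3 CPM in T3 to 240 ± 2.44 CPM in T5 (SD, n = 4 and 2), close to its 197 ± 53.2 CPM in T0. The 4 T5 libraries before they were added up had 276, 213, 236 and 243 CPM, each below each T3 replicate. None of the 40 was called higher, and 5 had an unadjusted p under 0.05, as did 4110 of the 31999 genes tested. Over all genes 1.28% were called higher and 0.888% lower, 2.17% together, and among genes within the set's range of levels 1.64% and 1.57%. With only 1 T5 replicate left, Tet2 was no longer called (adjusted p = 0.176 and 0.204), at log2 fold changes of -1.35 and -1.33. The summed endothelial markers, at 510 to 609 CPM in T3 and 307 to 309 CPM in T5, and the myofibre markers, at 176 to 245 and 158 to 160 CPM, were likewise highest in T3, with 5 of 12 and 5 of 16 genes called lower in T5 than in T3. Their part in the change of Tet2 was not tested. DESeq2 also called only Tet2 lower and none higher, beside 2.06% and 1.09% of all genes. Without T0 replicate 3, which enters the shared estimate of spread, Dot1l, Kdm6b, Setd1a and Smyd2 were called lower as well (adjusted p = 0.0411, 0.0217, 0.0469 and 0.0205). With Tet2 these made 5 of the 40, beside 5.01% of all genes called lower in that fit. The median log2 fold change of the 40 was -0.20, against 0.05 for all genes, and T5 and T3 replicates did not overlap for 22 of the 40, against 38.2% of all genes. In the partner lists, Zbtb38, a reader of methylated DNA, rose again by 1.05 (adjusted p = 0.0128) after falling by 1.28 in T3, and Hr, an H3K9 demethylase gene, fell by 1.07 (0.0442). The first call was lost in 3 and the second in 8 of 16 other settings.

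T5 against T0 shares its T0 replicates with the first comparison and is given beside it without a test of likeness. Here 5 genes were higher and 12 lower, against 13.2% and 22.5% of all genes (35.7% in either direction) and 18.6% and 33.1% of those within the set's range of levels. Replicates did not overlap for 24 of the 40, against 59.3% of all genes. The 5 were Kdm1a (1.58 in T5 and 1.54 in T3, each against T0), Kdm6b (1.50 and 2.22), Dot1l (1.09 and 1.65), Kdm7a (1.08 and 1.52) and Kdm5b (0.95 and 0.97). Lower by at least 2-fold were Tet1 (-1.82 and -2.08), Nsd1 (-1.60 and -1.88), Ezh1 (-1.51 and -1.45), Ehmt2 (-1.30 and -1.10), Kmt2c (-1.10 and -0.65) and Ehmt1 (-1.05 and -0.73). Kdm4c was 1.99-fold lower, and the last 5 were Kdm1b, Kmt2e, Kdm2b, Setd1b and Tet3, at -0.97 to -0.68. Of these calls, Tet3 was kept in 4 of 16 other settings, Kdm2b in 10 of 16 and Setd1b in 8 of 15. Kdm1b, Kdm4c and Kmt2e were lost without either T5 replicate and Ehmt1 without T5 replicate A. Their log2 fold changes in those fits were -1.01 to -0.83. Without T0 replicate 3, 6 were higher and 18 lower, against 26.2% and 29.4% of all genes. Tet2 was not called in T5 against T0 (0.29, adjusted p = 0.41). With upper quartile scaling, 17 were higher and 9 lower, against 22.3% and 17.6% of all genes. That scaling moved the median of all genes from 0.18 to 0.51.

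Polycomb partners assist PRC2 or form PRC1, the complex that reads its mark. Of 29 such genes, 7 rose and 11 fell in T3 against T0, with a median log2 fold change of 0.09, against 0.05 for all genes tested, of which 15.0% were called higher and 22.9% lower. The chromodomain genes Cbx6, Cbx7 and Cbx2, whose products read H3K27 trimethylation, fell by 2.36, 2.25 and 2.56 (adjusted p = 1.51e-08, 4.02e-08 and 7.5e-08). Cbx2 was low, with a mean of 3.67 CPM in T0 that became 0.618 CPM in T3. Cbx6 is overlapped by Npcd with 147% and Cbx7 by Apobec3 with 38.6% as many counts. Rybp, a subunit of the PRC1 forms without a CBX protein, went the other way, from 23.5 ± 5.91 to 109 ± 19.4 CPM (SD, n = 3 and 4, log2 fold change 2.21 by edgeR, adjusted p = 8.9e-08). Of 17 genes for readers, cofactors and repair enzymes of DNA methylation, 3 rose and 8 fell, with a median of -0.46, beside the same 15.0% and 22.9% of all genes. Cxxc5, which encodes a CXXC-domain protein, fell by 2.57 (8.94e-09). The methyl-CpG-binding glycosylase gene Mbd4 fell by 2.34 (3.23e-08, with Gm44206 at 42.6%) and the reader Zbtb4 by 2.04 (9.45e-08). Uhrf1, which guides DNMT1, rose by 0.86.

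Genes that supply the methyl donor and the 2-oxoglutarate cofactor, 19 in all, included 4 that rose and 6 that fell in T3. Of all genes, 15.0% rose and 22.9% fell. The isocitrate dehydrogenase genes Idh2 and Idh1, whose products make 2-oxoglutarate, fell by 2.19 and 1.81 (adjusted p = 1.2e-08 and 2.15e-07). Idh2 had 62.7 ± 13.3 CPM in T0 and 13.7 ± 0.755 CPM in T3 (SD, n = 3 and 4). D2hgdh, which turns 2-hydroxyglutarate into 2-oxoglutarate, fell from 15.5 to 2.72 CPM (3.34e-08). For S-adenosylmethionine synthetase, the regulatory subunit gene Mat2b fell by 1.51 (3.32e-06), while the catalytic Mat2a rose by 0.98. Particl overlaps Mat2a with 12.7% as many counts. Of 10 genes for arginine methyltransferases and their cofactor, 3 rose and 3 fell, beside the same 15.0% and 22.9% of all genes. Prmt9 and Prmt2 fell by 1.42 and 1.31 (4.58e-06 and 1.13e-05). Prmt1, the main asymmetric dimethylation enzyme, rose by 0.73 (0.0123), and Wdr77, the cofactor of PRMT5, from 27.2 to 59.2 CPM (0.000296), with the overlapping Gm42890 at 125% of its counts.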

How the data were processed

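The deposited file is 1 count table made by the authors, with whole, unnormalized read numbers for 48709 genes in 11 libraries. Tools named in the submitters' processing notes are featureCounts 1.4.6-p3 of Subread, STAR 2.5.0a, R 3.3.1 and DESeq2 1.12.3, and the build is GRCm38. The strand setting, filters and annotation release are not given in the sources used here. Identifiers were matched to GENCODE vM21, and 360 had no entry. Of 1714 genes inside introns of another gene with a mean count of at least 100 per library, 1710 had a host with at least their count, so the values hold intronic reads and reads shared by overlapping genes. A gene with an overlapping gene of 10% or more of its count is called uncertain, which holds for 13 of the 40.

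Columns were assigned to groups by name. No link was found between their numbers and the letters in the titles. Nothing says that replicates came from separate animals, so the spread behind each p-value may be technical only. T5 libraries sharing a letter were added up. No 2 libraries were identical.

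The main test was the quasi-likelihood F test of edgeR 4.0.16 under R 4.3.3, two-sided, with TMM, filterByExpr, all 3 groups in 1 fit with 6 residual degrees of freedom, and Benjamini-Hochberg over 31999 genes. A call is an adjusted p under 0.05, and standard errors were taken from the F statistic and the fold change. The fit was tested on simulated data. Alternatives were upper quartile and DESeq2 size factors, DESeq2 1.42.0, no filter on low counts, ribosomal RNA loci left out, T5 libraries apart, a replicate block, each replicate left out and, chosen after seeing the data, the reads of overlapping genes taken off unless they reached 50% of a gene's counts.

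The members, gene lists and tests were chosen with earlier results of these data known. Each member is named. Values per replicate are given for members called with at least a 2-fold change in T3 against T0, for any called in T5 against T3, and for paralogues called in opposite directions. Up to 4 called genes with the smallest p in T3 against T0, and up to 2 in T5 against T3, are named from each partner list. Of the genes this rule picks, 2 are not reported here. Ezh2, Nsd2, Nsd3, Uhrf1 and Mat2a, named outside this rule, were chosen after their values were seen, as were the ranges given for genes that were not called.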

Additional observations from a re-analysis of the deposited data

Results flagged for a closer look

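Kmt2d, an H3K4 methyltransferase gene, had 358 CPM in T3 replicate 1, while the other T3 replicates had 459 to 478 CPM. Its gap to the nearest replicate was 0.848 of the whole range of the group, above the 95% critical value of Dixon's test for 4 samples. All 40 genes were examined in this way in T3 and 1 stood out, while chance gives about 1 in 20.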

How the results depend on the processing

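The counts of genes called depended most on T0 replicate 3, on the scaling and on having 2 T5 replicates. Leaving out each replicate in turn gave 8 to 13 genes higher and 8 to 14 lower in T3 against T0, 0 to 5 lower in T5 against T3, and 5 to 18 lower in T5 against T0. The shares of all genes called moved as well, so these ranges are not particular to the set. With a T0 or T3 replicate left out, 12.9 to 22.4% of all genes were higher and 20 to 28.1% lower in T3 against T0. In the same fits 0.58 to 5.01% were lower in T5 against T3 and 19.5 to 29.4% in T5 against T0. Upper quartile factors gave 23 higher in T3 against T0 and 17 in T5 against T0, beside 22.4% and 22.3% of all genes. With 4 T5 libraries apart, 2 genes were lower in T5 against T3, Tet2 and Kdm6b, beside 3.78% of all genes. With the reads of overlapping genes taken off, 3 were higher in T5 against T0, since Kdm1a and Kdm7a are among the 7 genes that then had no value. The cause of the other differences was not tested. No gene's called change reversed in any setting. Of the 12 higher and 9 lower genes in T3 against T0, 8 and 7 were called in every setting that gave them a value, and in T5 against T0 5 of 5 and 5 of 12. Same-numbered T0 and T3 columns did not deviate together in every pair (correlations -0.237, 0.42 and 0.328), so the numbers were not taken to pair samples. A replicate block gave 8 higher and 8 lower genes in T3 against T0, beside 13.9% and 20.1% of all genes. It lost Kdm4a (-0.65, adjusted p = 0.0658), Suz12, Setd2, Suv39h1 and Prdm2, and T5 columns carry other numbers. Where 1 T5 replicate was left, it was assumed to vary like the other groups. An SE of about 0.2 to 0.28 limits what changes under 1.5-fold could be seen.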
